A study of Mus musculus with 18 samples.

Results

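The mevalonate arm of cholesterol synthesis is the chain of enzymes that builds squalene from acetyl-CoA. It was listed here as 9 genes, taken by symbol: Acat2, Hmgcs1, Mvk, Pmvk, Mvd, Idi1, Ggps1, Fdps and Fdft1. Of these, 8 had a named feature on the array, out of 23111 named features in the series, and Acat2, which condenses acetyl-CoA in the cytosol, was not analysed here. The enzyme step that turns HMG-CoA into mevalonate was not on the list.

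Livers of adult male C57Bl/6N mice were compared after repeated carbon tetrachloride (CCl4), a solvent that hepatocytes turn into a toxic radical and that scars the liver. CCl4 was given intraperitoneally in olive oil at 1.6 g/kg, 2 times per week, and mice were killed on the second day after the last dose, with RNA taken from the right lobe. There were 3 arrays (Affymetrix Mouse Gene 2.0 ST, 1 per liver) in each of 6 groups: control, labelled healthy and 20 weeks old, and CCl4 for 2, 4, 6, 8 or 10 weeks, in mice aged 12, 14, 16, 18 and 20 weeks. The methods describe the control mice as oil-injected for the full course in one place and as untreated in another. The labels place the control at week 10, whereas the study's array time points begin at the start of the course. By the labels, age was matched to control at week 10 alone. Among CCl4 mice, age and weeks of injection cannot be told apart. The study's phases are initiation (I), progression (II, here weeks 4 and 6) and tolerance (III, here weeks 8 and 10).

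The liver is a main site of cholesterol synthesis, and its hepatocytes draw on this arm for it. The arm runs from HMG-CoA through mevalonate and its phosphates to the isoprene units IPP and DMAPP, which are joined to farnesyl diphosphate. From there the chain leads to squalene and the sterols, or branches to longer isoprenoids that anchor proteins to membranes. When sterol in the endoplasmic reticulum is low, the transcription factor SREBP-2, together with SCAP, is released from INSIG. SREBP-2 then raises transcription of these genes together. It binds sterol response elements in their promoters, commonly with NF-Y bound to a CCAAT box and SP1 to a GC box nearby.

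The stretches before the start sites of 4 of these genes are shown because the first 3 belong to genes whose values moved up and down together across livers, and the fourth to one that followed them less closely. They come from RefSeq on GRCm38.p6, run 5′ to 3′ on the strand of the gene, end at the base before the gene, and stop where a neighbouring gene begins. Capitals mark 3 motifs on either strand, TCACNCCAC (sterol response element), CCAAT (NF-Y box) and GGGCGG (GC box).
Hmgcs1, chr13:119690101-119690350, plus strand: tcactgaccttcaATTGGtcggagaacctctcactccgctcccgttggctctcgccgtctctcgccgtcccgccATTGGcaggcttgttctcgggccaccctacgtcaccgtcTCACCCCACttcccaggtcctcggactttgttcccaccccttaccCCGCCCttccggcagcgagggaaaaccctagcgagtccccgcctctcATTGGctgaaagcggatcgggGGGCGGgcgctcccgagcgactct
Mvk, chr5:114444074-114444263, plus strand: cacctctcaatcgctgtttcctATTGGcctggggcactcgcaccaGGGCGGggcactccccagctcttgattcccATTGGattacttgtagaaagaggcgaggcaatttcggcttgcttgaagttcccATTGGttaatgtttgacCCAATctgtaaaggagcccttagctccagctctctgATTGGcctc
Mvd, chr8:122443423-122443655, minus strand: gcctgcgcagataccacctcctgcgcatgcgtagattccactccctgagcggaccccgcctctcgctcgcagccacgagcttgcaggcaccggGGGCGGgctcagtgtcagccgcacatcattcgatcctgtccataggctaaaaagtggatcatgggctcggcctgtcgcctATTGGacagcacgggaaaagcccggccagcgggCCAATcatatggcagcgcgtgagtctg
Idi1, chr13:8885356-8885605, plus strand: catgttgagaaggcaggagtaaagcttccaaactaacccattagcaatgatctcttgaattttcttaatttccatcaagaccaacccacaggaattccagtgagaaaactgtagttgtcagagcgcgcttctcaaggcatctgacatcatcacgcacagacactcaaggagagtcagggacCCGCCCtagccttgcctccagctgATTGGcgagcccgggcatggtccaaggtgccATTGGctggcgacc
The stretch before Mvk is the whole interval of 190 bases between Mvk and Mmab, which is read in the opposite direction and encodes the adenosyltransferase that readies vitamin B12 for use in mitochondria. It holds 5 CCAAT boxes, and the Hmgcs1 stretch holds the sterol response element TCACCCCAC.

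The RefSeq table held 7 windows of 300 bases, from 250 before to 50 after a start site, for 6 of the 8 genes. Windows for Fdps and Fdft1 were not used here. TCACNCCAC lay in 1 of the 7 windows, that of Hmgcs1, against 1.24% of all 32851 promoter windows. CCAAT lay in 6 of the 7, against 37.4% of all windows, and GGGCGG in 4 of the 7, against 35.7%. The windows of Hmgcs1 and Mvk held 4 and 5 CCAAT boxes, and 1.06% of all windows held at least 4. Those of Mvd and Idi1 held 2 CCAAT boxes and 1 GC box each. Among genes whose stretch is not shown, Ggps1 had 3 CCAAT boxes and no GC box. Pmvk, which also moved with the others, had 1 and 0 CCAAT boxes in its 2 windows and no GC box. Any link between motifs and shared movement was not tested. A match is a description of the letters and does not show that a factor bound there. Only 1 form of the sterol response element was searched, so a window without it was not shown to lack such an element.

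After CCl4, 4 of the 8 enzymes were higher at week 10: Hmgcs1 (3.03-fold), Mvd (2.38-fold), Pmvk (2.11-fold) and Fdft1 (1.88-fold). Hmgcs1 was also higher at weeks 6 and 8, and no enzyme was called lower at any week. Mvk, Idi1, Ggps1 and Fdps passed the test at no week. Changes are differences of log2 intensities from limma, fitted in 1 model over all groups, and a gene was called at a Benjamini-Hochberg adjusted p under 0.05 over all 23111 genes and a fold change above 1.5. Replicates 1 and 2 of week 6 differed far less than any other pair of livers of 1 group (SD of log2 differences 0.137 over 500 bright and variable genes, against 0.347 to 0.832), so their mean was taken as 1 sample and week 6 has n = 2. In bulk RNA, fewer cells of a type and less RNA per cell cannot be told apart.

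Hmgcs1 encodes the cytosolic HMG-CoA synthase, which adds an acetyl unit to acetoacetyl-CoA to make HMG-CoA. Its log2 intensity was 11.06, 10.14 and 10.26 in the control livers, 11.20, 11.84 and 11.44 at week 2, 11.49, 11.13 and 10.93 at week 4, 11.93, 11.90 and 11.59 at week 6, 11.56, 11.40 and 12.14 at week 8, and 12.34, 11.66 and 12.25 at week 10. All CCl4 livers lay above every control liver except replicate 3 of week 4, which fell below control replicate 1. At week 10 the mean was 12.08 ± 0.37, against 10.48 ± 0.50 in control livers (SD, n = 3 each), a log2 change of 1.60 (SE 0.28, limma adjusted p = 0.00835). The changes at weeks 6 and 8 were 1.27 (SE 0.313, adjusted p = 0.0236) and 1.22 (SE 0.28, adjusted p = 0.0474), and those at weeks 2 and 4 were 1.01 (adjusted p = 0.0808) and 0.70 (adjusted p = 0.283). Averaged over all 5 CCl4 groups, Hmgcs1 was 1.16 higher (SE 0.219, adjusted p = 0.00665). It was also the 1 enzyme that differed across the 6 groups by the moderated F test (adjusted p = 0.0453), which called 3.62% of all genes, and that call was lost without any 1 of 11 arrays.

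Mvk encodes mevalonate kinase, the first of 3 enzymes that use ATP to turn mevalonate into isopentenyl diphosphate. Its log2 intensity ranged from 6.62 to 7.47 at week 10 and from 5.92 to 6.88 in control livers, and the groups overlapped. The change at week 10 was 0.84 (95% interval 0.10 to 1.58, adjusted p = 0.183), and over all CCl4 groups it was 0.48 (adjusted p = 0.321). Control replicate 1 was 0.89 above the mean of the other control livers. The SE of Mvk at week 10, 0.344, was above those of Hmgcs1, Pmvk, Mvd and Fdft1.

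Pmvk encodes phosphomevalonate kinase, the next enzyme. Its log2 intensity was 8.08, 7.80 and 7.78 in control livers, 7.80, 8.45 and 8.46 at week 2, 8.56, 8.13 and 7.76 at week 4, 8.46, 8.41 and 8.35 at week 6, 8.62, 8.01 and 8.66 at week 8, and 9.37, 8.76 and 8.77 at week 10. The 3 livers of week 10 were the highest of all 18, and weeks 2, 4 and 8 overlapped control. Pmvk was 1.08 higher at week 10 (SE 0.248, limma adjusted p = 0.0279), and the mean over all CCl4 groups was 0.55 higher but did not pass (adjusted p = 0.104).

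Mvd encodes the decarboxylase that closes the mevalonate steps with isopentenyl diphosphate. Its log2 intensity was 6.44, 6.06 and 6.12 in control livers, 6.77, 7.08 and 6.91 at week 2, 7.50, 6.82 and 6.60 at week 4, 6.98, 6.61 and 6.56 at week 6, 6.96, 6.58 and 7.35 at week 8, and 7.79, 7.18 and 7.41 at week 10. Every CCl4 liver lay above every control liver, which was true of no other enzyme of the arm and of 2.51% of all genes. Mvd was 1.25 higher at week 10 (SE 0.238, limma adjusted p = 0.0123) and 0.79 higher over all CCl4 groups (SE 0.186, adjusted p = 0.0195). Its changes at weeks 2, 4, 6 and 8 lay between 0.47 and 0.76 and did not pass.

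**Figure D1:**
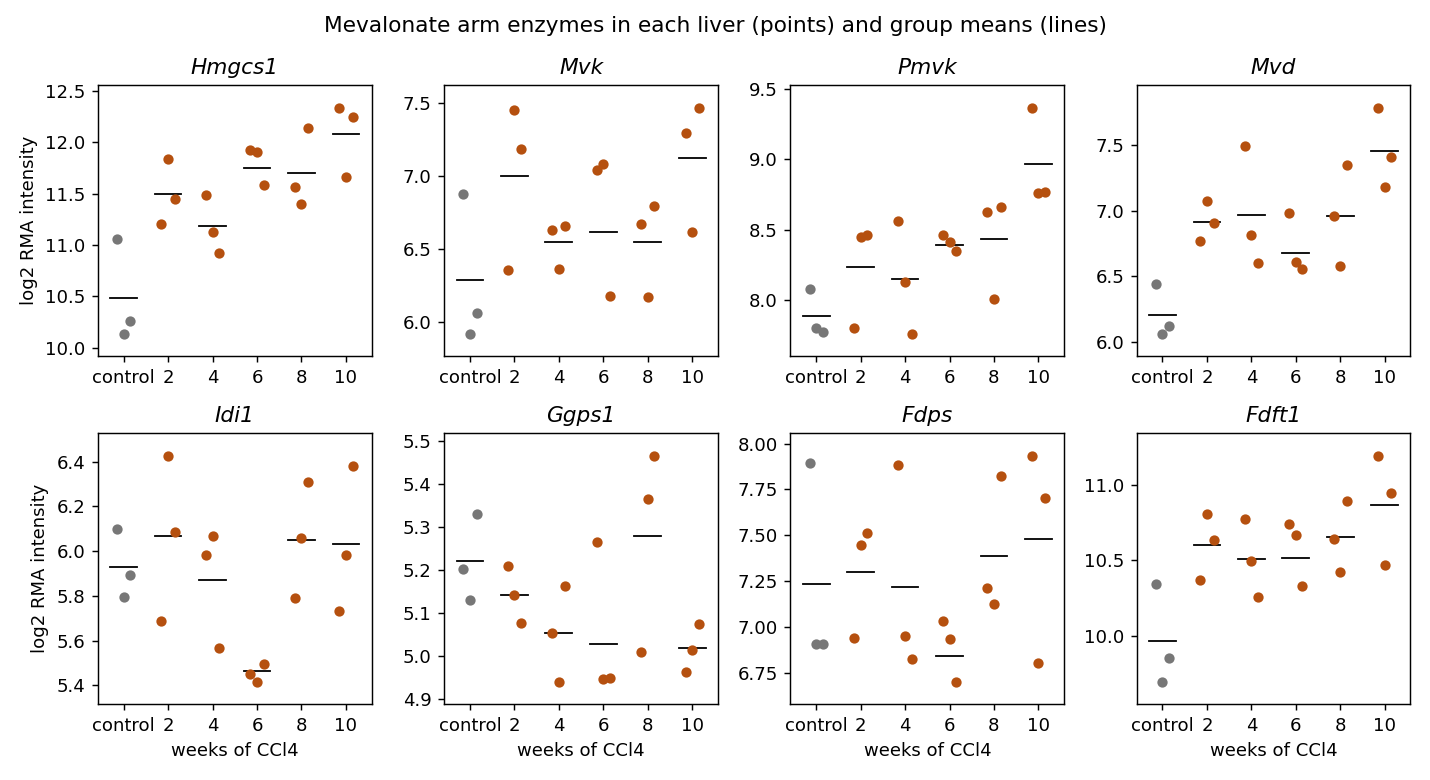
Log2 RMA intensity of the 8 measured enzymes in each liver (points; gray, control; orange, CCl4) by weeks of CCl4, with group means as black lines (week 6 as the mean of 2 samples; each panel has its own scale). The mean was highest at week 10 in Hmgcs1, Mvk, Pmvk, Mvd, Fdps and Fdft1, whereas Ggps1 spanned less than 1 log2 unit over all livers.

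The 3 enzymes that interconvert and join isoprene units did not pass the test at any week. Idi1 encodes the isomerase that turns IPP into DMAPP. Its log2 intensity was 5.45, 5.42 and 5.49 at week 6, against 6.10, 5.79 and 5.89 in control livers, and these groups did not overlap, as was the case in this direction for 24.3% of all genes. The change was −0.46 (adjusted p = 0.254), and at the other weeks it lay between −0.06 and 0.14. Its paralog Idi2, which is known from skeletal muscle, stayed between 3.78 and 4.05 on all 18 arrays.

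Fdps, which joins isoprene units to farnesyl diphosphate, had 7.93, 6.80 and 7.70 at week 10, against 7.89, 6.91 and 6.91 in control livers. The groups overlapped, and the spread within them was wide. The change at week 10 was 0.25 (95% interval −0.55 to 1.04, adjusted p = 0.765), an interval that still holds the size of the change in Fdft1. Ggps1, which extends farnesyl diphosphate to geranylgeranyl diphosphate on the branch away from sterols, had 4.96, 5.01 and 5.07 at week 10, against 5.20, 5.13 and 5.33 in control livers. Its groups did not overlap at week 10, as was the case in this direction for 14.5% of all genes, but the change was −0.20 (95% interval −0.42 to 0.02, adjusted p = 0.276).

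Fdft1 encodes squalene synthase, the first step given over to sterols. Its log2 intensity was 10.34, 9.69 and 9.85 in control livers, 10.37, 10.81 and 10.63 at week 2, 10.77, 10.49 and 10.26 at week 4, 10.74, 10.67 and 10.33 at week 6, 10.64, 10.42 and 10.90 at week 8, and 11.20, 10.47 and 10.95 at week 10. All CCl4 livers except replicate 3 of weeks 4 and 6 lay above the 3 control livers. Fdft1 was 0.91 higher at week 10 (SE 0.22, limma adjusted p = 0.0343) and 0.67 higher over all CCl4 groups (SE 0.172, adjusted p = 0.0299).

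**Figure D2:**
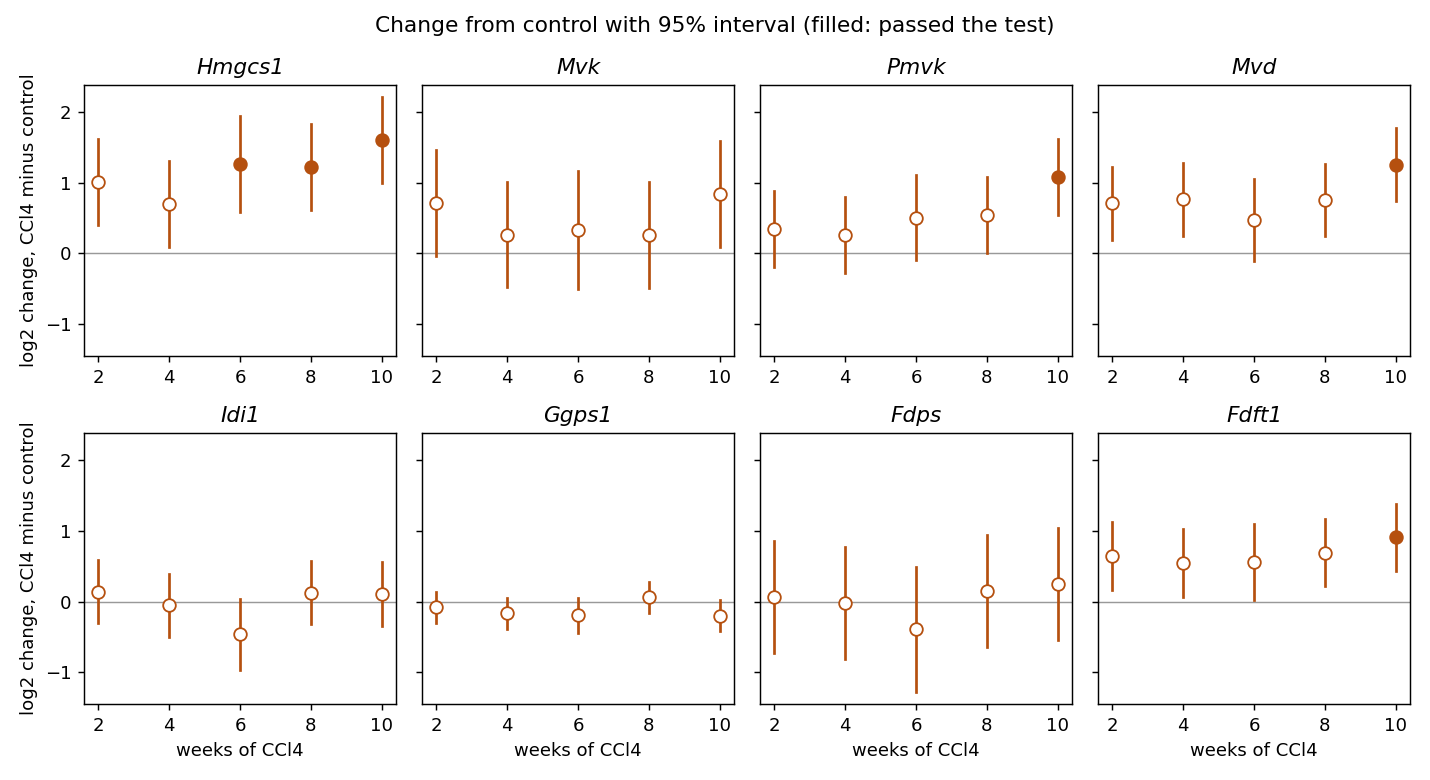
Log2 change from control (points) with its 95% interval (bars, unadjusted) by weeks of CCl4, 1 panel per enzyme, with filled points where the test was passed. Filled points are those of Hmgcs1 at weeks 6, 8 and 10 and of Pmvk, Mvd and Fdft1 at week 10.

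By week, the enzymes called higher were 0 of 8 at week 2 (0.831% of all genes were called higher), 0 of 8 at week 4 (0.528%), 1 of 8 at week 6 (2.98%), 1 of 8 at week 8 (0.563%) and 4 of 8 at week 10 (1.31%). None was called lower, where 0.575%, 0.355%, 1.86%, 0.398% and 0.762% of all genes were at weeks 2, 4, 6, 8 and 10. Over all CCl4 groups together, 3 of 8 were called higher, namely Hmgcs1, Mvd and Fdft1, against 1.64% of all genes, and 0 lower, against 0.939%. An unadjusted limma p under 0.05 was reached by 3 enzymes at each of weeks 2 and 4. Counts at this unadjusted p, here and below, have no share of all genes beside them and are not read as results. The median change of the 8 was 0.50, 0.26, 0.40, 0.40 and 0.87 at weeks 2, 4, 6, 8 and 10, where the median over all genes was within 0.02 of 0. At week 10, 4 of the 8 had CCl4 livers all above the control livers, against 11.1% of all genes. These comparisons share the same 3 control livers.

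The calls of weeks 6 and 8 and of all weeks together did not hold without some single livers. Without control replicate 2 or 3 the counts at weeks 6 and 8 and over all CCl4 groups were 0, with Hmgcs1 at 1.09 and 1.15 at week 6, 1.04 and 1.10 at week 8, and 0.98 and 1.05 over all groups. Without replicate 3 of week 6 the change of Hmgcs1 at week 6 was larger, 1.43, and its adjusted p was 0.0733. At week 8 Hmgcs1 also missed the threshold without any 1 of 11 CCl4 livers, at adjusted p between 0.0507 and 0.168. For those from other weeks its change stayed 1.22, and without week 8 replicates 1, 2 or 3 it was 1.29, 1.37 or 1.00. At week 10 the count was 2 without control replicate 2 or 3 or week 10 replicate 1, and then Hmgcs1 and Mvd were the genes left, with Pmvk between 0.88 and 1.04 and Fdft1 between 0.74 and 0.85. Fdft1 also missed the threshold without week 10 replicate 3 (0.87, adjusted p = 0.082). Mvd at week 10 passed under all 26 alternatives run, with an adjusted p of at most 0.0493, and Hmgcs1 in 25 of 26, with an adjusted p of 0.0542 where week 10 and control were fitted alone.

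Whether the arm moved on between phases was asked by setting phase III against phase II. All 8 enzymes had higher means in phase III, with a median difference of 0.38, but 0 passed in limma, as was the case for 0% of all genes, and 2 of 8, Pmvk (0.43) and Idi1 (0.37), had an unadjusted p under 0.05. Of 80 tests between single weeks (10 pairs of weeks, 8 enzymes), 0 passed in limma and 11 had an unadjusted p under 0.05. The lowest adjusted p was 0.201, for Pmvk at week 10 against week 4 (0.81 higher), and in any pair of weeks 0.242% of all genes were called. The larger count at week 10 was therefore not shown to differ from that at other weeks.

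Across livers, 6 of the enzymes moved together, and Idi1 and Ggps1 less so. Over the 17 samples, the correlation of each enzyme with the mean of the other 7 was 0.946 for Fdft1, 0.877 for Mvd, 0.846 for Hmgcs1, 0.814 for Pmvk, 0.785 for Mvk and 0.697 for Fdps. It was 0.398 for Idi1 and −0.178 for Ggps1. With the group means removed, which leaves differences between livers given the same treatment, it was 0.966 for Hmgcs1, 0.961 for Fdft1 and 0.921 for Fdps. It was then 0.856 for Mvd, 0.777 for Mvk, 0.742 for Pmvk, 0.468 for Idi1 and 0.026 for Ggps1. For all 28 pairs the median was 0.561, with a lowest value of −0.403, and 0.597 with the group means removed. The 6 enzymes were set apart by these same values. The median over their 15 pairs was 0.74, and 0.829 with the group means removed. Values of 1 liver come from 1 RNA and 1 array, so these correlations describe the libraries and carry no test.

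**Figure D3:**
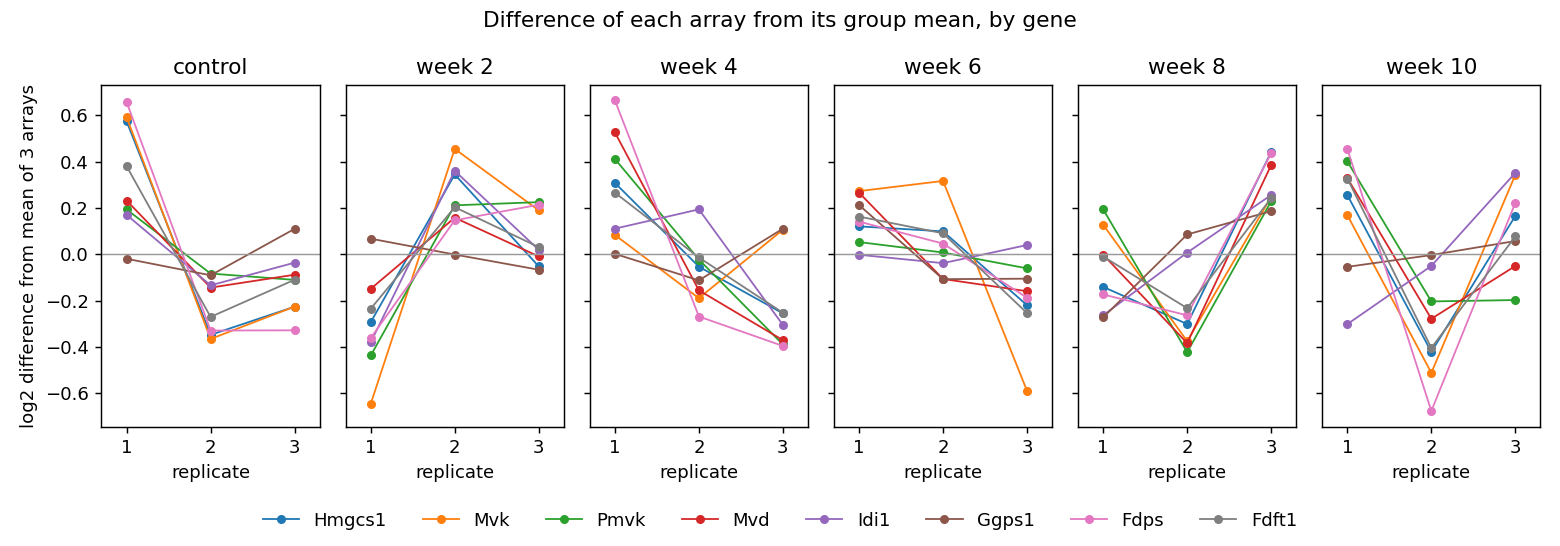
Log2 difference of each of the 3 arrays of a group from their mean, for the 8 enzymes (colored lines; the replicates have no order, and lines only join values of 1 gene). In most groups the lines of Hmgcs1, Mvk, Mvd, Fdps and Fdft1 bend the same way, such as upward at control replicate 1 and downward at week 10 replicate 2.

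Single livers stood apart in the arm as a whole. Control replicate 1 had the highest control value in 7 of 8 enzymes, above the mean of the other controls by 0.98 in Fdps, 0.86 in Hmgcs1 and 0.57 in Fdft1. The same liver was higher in the acute phase genes Saa1 (1.80), Saa2 (2.98) and Orm2 (2.51) and in the repressor Bcl6 (3.63), genes named after their values were seen, and their part in the result was not tested. Without it, Hmgcs1 passed at week 2 as well (1.30, adjusted p = 0.0354) and the counts at weeks 4 to 10 were the same. The array of control replicate 1 also appears to be the 1 that does not share its sorted values with the other 17. Week 8 replicate 3 was the highest of its group in 8 of 8 enzymes. Week 10 replicate 2 was the lowest of its group in 6 of 8, and its summed intensity of 5 acinar pancreas genes was 378.6, against at most 125.9 in the other livers. Without that liver the change of Pmvk at week 10 was larger, 1.18, and of Fdft1 too, 1.11. Then 3 enzymes passed, and Pmvk missed the threshold at an adjusted p of 0.0528.

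The genes most like the arm were sought by correlation with the mean of the 8 enzymes over the 17 samples. The 10 highest were Msmo1 (0.942), Mmab (0.941), Cyp51 (0.94), Dhcr7 (0.916), Nsdhl (0.906), Lss (0.903), Prdx3 (0.872), Rdh11 (0.826), Hsd17b7 (0.813) and Mterf2 (0.8). Of these, 6 belong to the list of 12 enzymes from squalene to cholesterol, and Mmab is the neighbor of Mvk across the 190 bases shown above. Rdh11 encodes a retinol dehydrogenase, Prdx3 a mitochondrial peroxiredoxin and Mterf2 a mitochondrial protein of the transcription termination family. By rank correlation 9 of the 10 were shared. Mmab had 8.02, 7.49 and 7.74 at week 10, against 7.28, 6.84 and 7.02 in control livers. These groups did not overlap, as was the case in this direction for 11.1% of all genes. The change of Mmab was 0.70 (SE 0.175, limma adjusted p = 0.037). Mmab was picked by its likeness to the arm over these same samples, so its difference at week 10 is no separate support.

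In the sterol arm that follows squalene, 11 of 12 listed genes had a named feature. They were called higher in 2 cases at week 2 (0.831% of all genes were), 1 at week 4 (0.528%) and 1 at week 6 (2.98%). At week 8 the count was 0 (0.563%), with 6 of 11 at an unadjusted limma p under 0.05. At week 10 it was 5 (1.31%), and none was called lower at any week. Sqle, the squalene epoxidase and a slow step of the pathway, had 10.00, 9.91 and 9.70 at week 10, against 8.87, 8.35 and 8.52 in control livers. All CCl4 livers lay above every control liver, as in 2.51% of all genes. Sqle passed at weeks 2 (1.21), 4 (1.03), 6 (1.13) and 10 (1.29). Lss, which folds squalene epoxide into lanosterol, had 10.22, 9.55 and 9.49 at week 10, against 8.27, 7.62 and 7.72 in control livers, and was 1.88 higher (SE 0.312, limma adjusted p = 0.00619). At week 10 Dhcr7, which makes cholesterol in the last step of one route (1.05; 0.78 at week 2, where it passed too), Cyp51, the lanosterol demethylase (1.03), and Nsdhl (0.68) also passed, and Ebp, a sterol isomerase, had an adjusted p of 0.017 but a change below 1.5-fold (0.39). Tm7sf2 and Lbr, both sterol C14 reductases, were at 0.00 and −0.07. The median of the 11 at week 10 was 0.64.

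**Figure D4:**
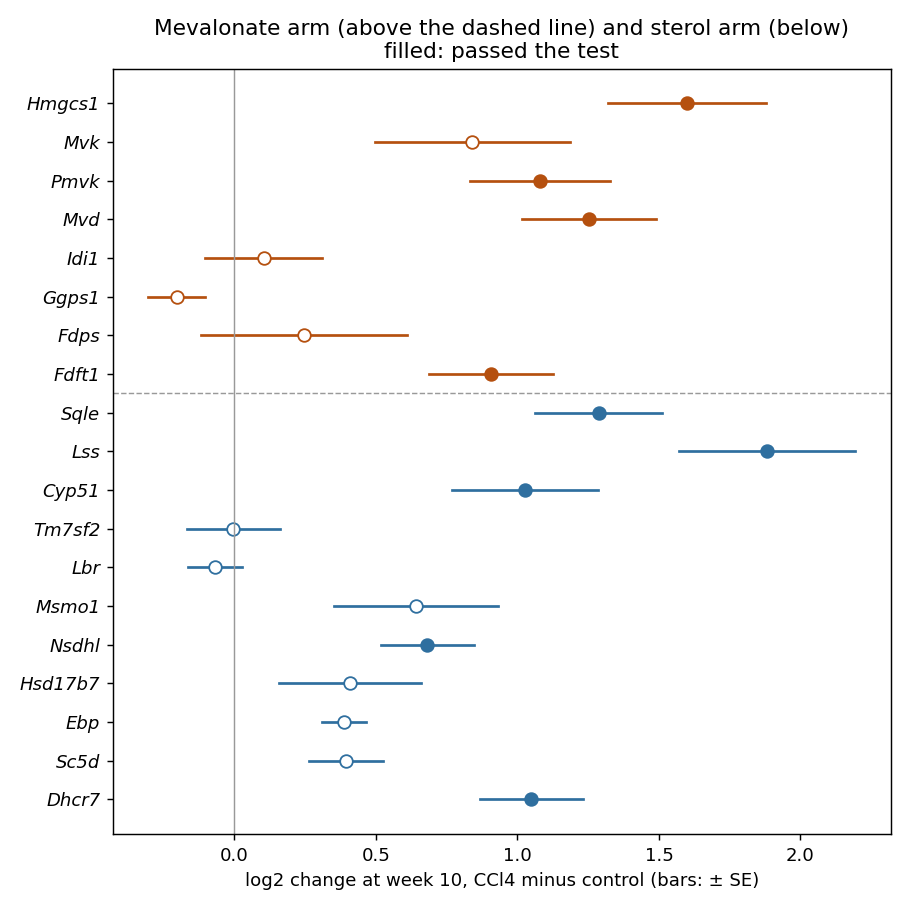
Log2 change at week 10 of CCl4 against control with its SE (bars) for the 8 enzymes of the mevalonate arm (orange, above the dashed line) and 11 of the sterol arm (blue, below it), in pathway order, with filled points where the test was passed. Filled points are 4 of 8 above the line and 5 of 11 below it (1.31% of all genes were called higher), with the highest change at Lss (1.88).

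Of the genes that govern the arm, 10 of 12 listed ones had a named feature. At week 10, 1 was called higher (1.31% of all genes were), and at week 6, 1 higher (2.98%) and 1 lower (1.86%). None was called at weeks 2, 4 or 8. Srebf2, which encodes SREBP-2, had 8.60, 8.22 and 8.19 at week 10, against 7.95, 7.47 and 7.61 in control livers, and was 0.66 higher (SE 0.172, limma adjusted p = 0.0441). Insig2, one of 2 proteins that retain SREBPs, was 1.46 higher at week 6 (adjusted p = 0.0153), and Npc1, which exports cholesterol from lysosomes, was 0.74 lower there (log2 change −0.74, adjusted p = 0.0172). Insig1 was at 0.92 at week 10 and did not pass (adjusted p = 0.0544). The median of the 10 at week 10 was 0.03. Over all CCl4 groups, Insig2 passed (0.84). Calls of genes outside the mevalonate arm are given from the main fit, without the checks by leaving out single livers shown above for the enzymes.

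The branches to other isoprenoids and the supply of acetyl-CoA were set beside the arm. Of 12 listed genes for dolichol, ubiquinone and prenyl transfer, 11 had a named feature and 0 were called in any comparison, with medians between −0.06 and 0.09 (2 to 4 at an unadjusted limma p under 0.05). Trit1, which adds an isopentenyl group to tRNA, had adjusted p of 0.0278 at week 4, 0.0327 at week 6 and 0.0177 over all CCl4 groups, with changes of −0.40, −0.34 and −0.27, below the fold threshold. Of 10 genes of acetyl-CoA supply and lipogenesis, Acly, the citrate lyase that makes cytosolic acetyl-CoA, passed at week 10 alone among the single weeks (1.20, SE 0.284, adjusted p = 0.0313). It had 12.54, 12.01 and 11.75 at week 10, against 10.98, 10.76 and 10.96 in control livers. Over all CCl4 groups Acly (0.80) and Acaca (0.82) passed. The median of the 10 was 0.13, 0.34, 0.11, 0.98 and 0.67 at weeks 2, 4, 6, 8 and 10. An unadjusted limma p under 0.05 was reached by 1, 1, 1, 6 and 5 of the 10 at those weeks. Of 4 ketone body genes 2 had a named feature and 0 were called (0 to 2 at an unadjusted limma p under 0.05). Bdh1, the hydroxybutyrate dehydrogenase, had −0.39 at week 2 with an adjusted p of 0.0391, below the fold threshold, and Acat1, the mitochondrial acetyl-CoA acetyltransferase, was at −0.12 at week 10 (adjusted p = 0.316).

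Markers of liver cell types moved beside these values. Of 8 hepatocyte markers, 7 had a named feature and 0 were called in any comparison (1 to 4 at an unadjusted limma p under 0.05). Their summed intensities were 80170 to 83180 at week 10 and 79800 to 81900 in control livers, but most of them lie near the top of the scale, and Alb was at the highest value of the data, 14.12, on all 18 arrays, so that this sum could hardly move. Hnf4a, a hepatocyte transcription factor below that range, had 11.50, 11.77 and 11.52 at week 10, against 11.64, 11.79 and 11.72 in control livers, which overlapped. Of 6 macrophage markers 5 were called higher at week 10 (1.31% of all genes were), with sums of 1774 to 2154 there and 714.1 to 1077 in control livers. Of 6 markers of stellate cells and myofibroblasts 3 were called higher at week 10, against the same 1.31%. Their sums were 1060 to 1209 there and 434.2 to 575.1 in control livers. The highest sum of either list was that of a week 6 liver. Endothelial markers had 1 of 4 called higher at week 2, against 0.831% of all genes. In any comparison, 0 of 4 cholangiocyte, 0 of 5 acinar pancreas and 0 of 4 adipocyte markers passed in limma (at most 1 of each of these lists at an unadjusted p under 0.05). The part of these cell types in the changes of the arm was not tested.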

How the data were processed

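Mouse liver RNA was hybridised to 18 arrays (Affymetrix Mouse Gene 2.0 ST). The authors made the deposited log2 values with affyPLM and a Brainarray chip definition on Entrez IDs, as RMA intensities (version not given in the sources used here). Of the 18 arrays, 17 share 1 set of sorted values, so changes are relative to each array. Control replicate 1 appears to be the array apart, with Alb at 14.1202, against 14.1191 on every other array. Quantile normalization of all arrays again left the counts of enzymes called the same in every comparison. Of 23748 features, 23111 had a gene name in the platform table. Precision is limited by the number of arrays. Groups followed the labels, which name no cage, hybridisation day or scan. limma 3.58.1 (R 4.3.3) was fitted to 17 samples and checked on simulated data; plots used Python 3.11.15 and matplotlib 3.10.9. Named are all listed enzymes, the 10 genes best correlated with their mean, and at most 4 called genes per list (lists: sterol arm, its control, isoprenoid branches, acetyl-CoA supply, ketone bodies, clock, cell cycle, and markers of 7 cell types). Nsdhl, Ebp, Trit1, Bdh1, Alb, Hnf4a, Tm7sf2, Lbr, Insig1, Acat1, Idi2, Saa1, Saa2, Orm2 and Bcl6 are named outside this rule in some places. Members and lists were chosen with earlier results of these data known. Alternatives were other sample sets, thresholds, priors, weights, normalizations, filters, a replicate block, and each array left out.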

Additional observations from a re-analysis of the deposited data

How the results depend on the processing

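Limits were the 3 livers per group, the 2 samples of week 6 and the shared controls. Fitted with the groups of each comparison alone, the enzymes called were 0 at week 6, 0 at week 8 and 2 at week 10. With a filter on low values 1 was called at week 2, with a fold above 2 the count over all CCl4 weeks was 1, and the F test called 2 with limma-trend, array weights, the filter or the replicate block. With each array left out in turn, the counts ranged from 0 to 1 at week 2, 0 to 0 at week 4, 0 to 1 at week 6, 0 to 1 at week 8, 2 to 4 at week 10, 0 to 3 over all CCl4 weeks, 0 to 0 for phase III against phase II, and 0 to 2 for the F test. The F test's count was 2 without week 4 replicate 1, and its call was lost without 11 other arrays, 9 of them CCl4. With group means removed, livers of the same replicate number correlated at r from −0.217 to 0.352 (45 pairs, 7 over 0.1). Pairs of different numbers were not compared, so a pairing by number was not settled. The replicate block left the counts at 0, 0, 1, 1 and 4 at weeks 2, 4, 6, 8 and 10, 3 over all CCl4 weeks and 0 between phases. Of 1456 values of single enzymes, 1391 kept their direction and side of the threshold, 34 lost the call, 2 gained it and 29 changed sign, none of which had passed. Those 29 belong to changes reported between −0.06 and 0.15. With each array left out, they ranged from −0.040 to 0.33 at week 2, −0.15 to 0.097 at week 4, −0.0034 to 0.26 at week 8, −0.072 to 0.25 at week 10 and −0.097 to 0.055 over all CCl4 weeks for Idi1, and from −0.034 to 0.20 at week 8 for Ggps1. For Fdps they ranged from −0.10 to 0.39 at week 2, −0.35 to 0.31 at week 4, −0.066 to 0.48 at week 8 and −0.15 to 0.34 over all CCl4 weeks, and array weights gave 0.047 at week 4.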

Other observations

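Clock genes and cell cycle genes had their most calls at week 6, where Idi1 had its lowest values. Of 12 clock genes all had a named feature, and at week 6, 2 were higher, Arntl (1.77, SE 0.333, limma adjusted p = 0.00612) and Clock (1.26, adjusted p = 0.0105), and 5 were lower, with the largest falls in Dbp (−2.25, adjusted p = 0.0136) and Ciart (−1.53, adjusted p = 0.00407). The 2 samples of week 6 differed in size here. Dbp had 7.02 and 7.11 in the averaged replicates 1 and 2 and 9.15 in replicate 3, and Arntl 6.62, 6.62 and 5.34. At week 10, 1 clock gene, Ciart, was lower (−0.95, adjusted p = 0.0386), and at weeks 2, 4 and 8, 0 of the 12 passed in limma (7, 1 and 3 at an unadjusted p under 0.05). Of 12 cell cycle genes 11 had a named feature, and 8 were higher at week 6, among them Ccna2 (4.16, adjusted p = 0.00566) and Mki67 (4.14, adjusted p = 0.0134). At week 10, 0 of the 11 passed in limma (4 at an unadjusted p under 0.05). At week 6, 2.98% of all genes were called higher and 1.86% lower. No source used here gives the hour of sampling.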
